A study of Mus musculus with 8 samples.

Results

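CD4 T cells labelled CD44lo were compared with CD4 T cells labelled naive, as the pair of CD44lo samples against the pair of naive samples, over every non-control probe of the array. These are 4 of the 8 samples of the series, whose other 4 are 2 CD44hi and 2 Treg (regulatory T cell) samples. Every group was sorted as CD4+ lymphocytes at 15 weeks of age from male C57BL/6 mice, whose spleen and lymph node cells were pooled. The series title names the alleles Ox40-cre and ROSA-YFP, in which cre follows the gene for Ox40, an activation receptor of T cells, and cells that have made cre carry a yellow fluorescent reporter. The labels used here give neither the sort gates nor the reporter status of any group, and they leave unsaid whether samples 1 and 2 of a group came from separate animals. The p-values therefore reflect only how far these samples differ, which can be technical.

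Naive CD4 T cells have not yet met their antigen, recirculate through lymph nodes and hold a programme of quiescence under factors such as Klf2, Foxo1 and Tcf7. After activation, CD4 cells take up helper fates marked by lineage factors (Tbx21 in type 1, Gata3 in type 2, Bcl6 and Cxcr5 in follicular helper cells), and regulatory T cells are defined by Foxp3. CD44 is an adhesion receptor whose surface level rises on antigen-experienced cells, so that CD44 low cells are usually counted with the naive pool.

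Each sample was hybridised to 1 single-colour array. A level below is the log2 processed signal of a gene's brightest probe relative to the 75th percentile of its array, a difference is the mean CD44lo level minus the mean naive level, and values after ± are standard errors from limma (n = 2 arrays per group). A gene is said to be called, or to have risen or fallen, where limma's adjusted p (Benjamini-Hochberg) was under 0.05. Where the probe was not well above background on either array of one group, the fold is given as "at least", against the dimmest signal that could be measured there. These bounds hold for the processed signal: after normexp, whose offset of 50 is added to every signal, the fold was below the bound for 30 of 30 named genes that rose with one, at 0.882 to 24.2. Of the 41174 probes, between 59.2% and 68.8% were well above background, the lowest share on naive array 2, on which the 75th percentile of the signal was 639 against 991 on naive array 1. The naive arrays differed from each other with an SD of 0.63 across genes (log2), against 0.36 for the CD44lo arrays. Naive 1 and CD44lo 1 lay on slide 2 of the arrays and naive 2 and CD44lo 2 on slide 1, so that each slide gave its own difference. The smallest p of an exact permutation test of 2 arrays against 2 is 0.333, so a call leans on limma's pooling of the spread over genes, and the number of arrays limits the precision.

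Among 17995 tested genes, 954 (5.3%) were called between CD44lo and naive, 817 (4.54%) higher and 137 (0.761%) lower in CD44lo. The median difference of all tested genes was -0.13, and it was -0.24 on slide 1 and -0.03 on slide 2. All 954 called genes had the same sign on both slides. The calls rest on the mean of these 2 slide differences, so this agreement follows largely from the selection and is no separate check. The balance of higher over lower calls, 85.6% higher, was 73.7% after normexp background correction, 70.2% on the authors' deposited table and 71.7% after scaling to the array median, which moved the median of all genes to -0.33. Leaving out naive array 1 raised the count to 7187 genes, 33.3% of them higher, while leaving out CD44lo array 2 lowered it to 506. In the comparison with CD44hi, 1683 genes (9.35%) were called for CD44lo, and 1000 genes (5.56%) in the comparison with Treg. Against CD44hi 3.31% of all genes were higher in CD44lo and 6.05% lower, and against Treg 1.87% and 3.69%. These shares of all genes, and those against naive, apply to each list count below.

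**Figure D1:**
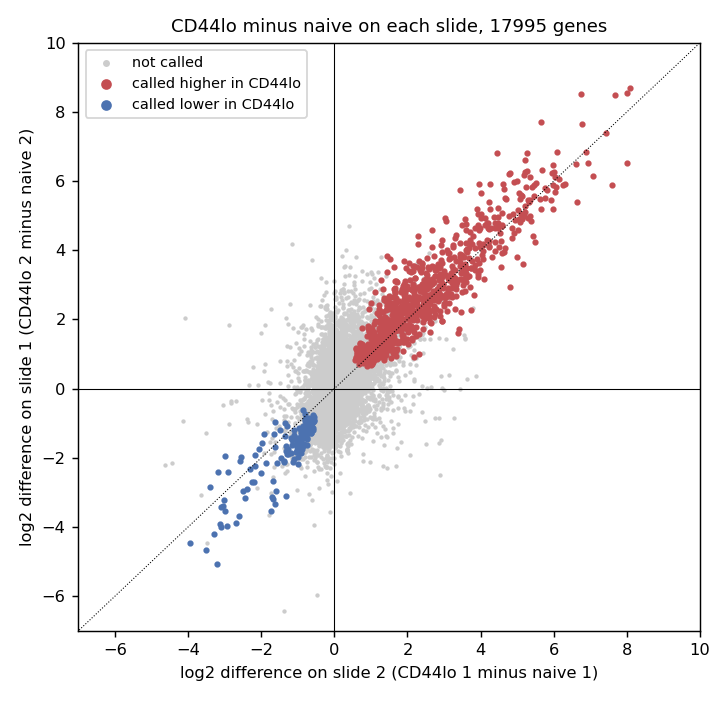
The difference between CD44lo and naive (log2) on slide 2 (x axis) is set against that on slide 1 (y axis) for each of 17995 genes, with genes called higher in red, called lower in blue and the others in grey. The 954 called genes lie in the upper right and lower left of the plot, and the red points reach further from 0 than the blue ones.

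A run of 3 neighbouring class II genes fell in CD44lo, H2-Eb1 beside H2-Aa and H2-Ab1, and upstream sequences of this run are shown first because the results below return to it. Class II molecules present peptide antigen to CD4 T cells and are made by B cells, dendritic cells and macrophages under the coactivator Ciita. Their promoters carry a conserved block of short boxes, of which the Y box, an inverted CCAAT box, is bound by the factor NF-Y. The Y-box letters CTGATTGG were searched on both strands in the 250 bases before the annotated start of each gene (RefSeq, GRCm38.p6), and they are in capitals in the 2 windows printed here, each of which holds them once. The H2-Aa window is chr17:34287824-34288073 on the minus strand and the H2-Eb1 window is chr17:34305617-34305866 on the plus strand.
H2-Aa: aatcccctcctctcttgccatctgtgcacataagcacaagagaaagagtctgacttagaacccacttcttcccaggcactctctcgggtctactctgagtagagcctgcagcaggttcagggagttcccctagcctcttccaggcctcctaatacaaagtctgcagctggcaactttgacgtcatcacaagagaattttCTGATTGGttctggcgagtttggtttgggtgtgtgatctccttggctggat
H2-Eb1: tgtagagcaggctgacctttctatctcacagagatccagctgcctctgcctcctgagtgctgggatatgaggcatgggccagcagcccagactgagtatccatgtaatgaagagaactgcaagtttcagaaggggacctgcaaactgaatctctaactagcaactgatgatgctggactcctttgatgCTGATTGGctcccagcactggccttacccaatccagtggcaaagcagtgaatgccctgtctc
In H2-Aa the 8 letters span positions 51 to 44 before the start, and in H2-Eb1 positions 62 to 55. The same letters were in 4.43% of the 27025 genes with a window and in 3 of the 8 class II and antigen presentation genes with one (H2-Aa, H2-Eb1 and H2-Oa). They were in 4 of 95 windows of genes lower in CD44lo (4.21%) and in 29 of 549 windows of genes higher (5.28%), against 5.8% of the 11138 tested genes with a window. A match is a description of letters and not a bound site.

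The largest rises included genes not well above background in naive cells and genes measured on all arrays. Ces2c, a carboxylesterase (probe at chr8:103452998-103453057, mm7), had levels of -7.83 and -7.94 on the naive arrays and 0.25 and 0.75 on the CD44lo arrays. It was not well above background on either naive array, and its rise was at least 92.4-fold (difference 8.38 ± 0.19, adjusted p = 4.06e-05). Its neighbour and paralogue Ces2b had levels of -6.74 and -7.09 in naive and 0.94 and 1.39 in CD44lo, a rise of at least 147-fold. Probes of such paralogues may share signal. The groups were far apart for both genes, and the spread between arrays of a group stayed under 1 on the log2 scale.

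Slc7a10, a transporter of small neutral amino acids (probe at chr7:32090563-32090622, mm7), had levels of -8.39 and -7.97 in naive and -0.38 and 0.57 in CD44lo. That was a rise of at least 69.9-fold (adjusted p = 0.000129), again from a probe not well above background in naive cells. Ttc39c, a tetratricopeptide repeat protein, was measured on all arrays, with levels of -5.48 and -4.67 in naive and 1.94 and 2.73 in CD44lo. Its 170-fold rise (difference 7.41 ± 0.38, adjusted p = 0.000204) was 7.42 on slide 2 and 7.40 on slide 1. The remaining leading rises included Osbpl3, an oxysterol-binding protein (97.1-fold, with 1 of the 2 naive arrays well above background), Sccpdh, a putative dehydrogenase (53.1-fold), Nrbp2, a pseudokinase (59.9-fold), and Serpina3g, a protease inhibitor made by activated T cells (58.2-fold). Matn2, an extracellular matrix protein, and Cd22, an inhibitory receptor best known on B cells, rose by factors of at least 50.7 and 56.0, with both naive arrays below the CD44lo arrays for every one of these genes, as for 18.6% of all tested genes.

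**Figure D2:**
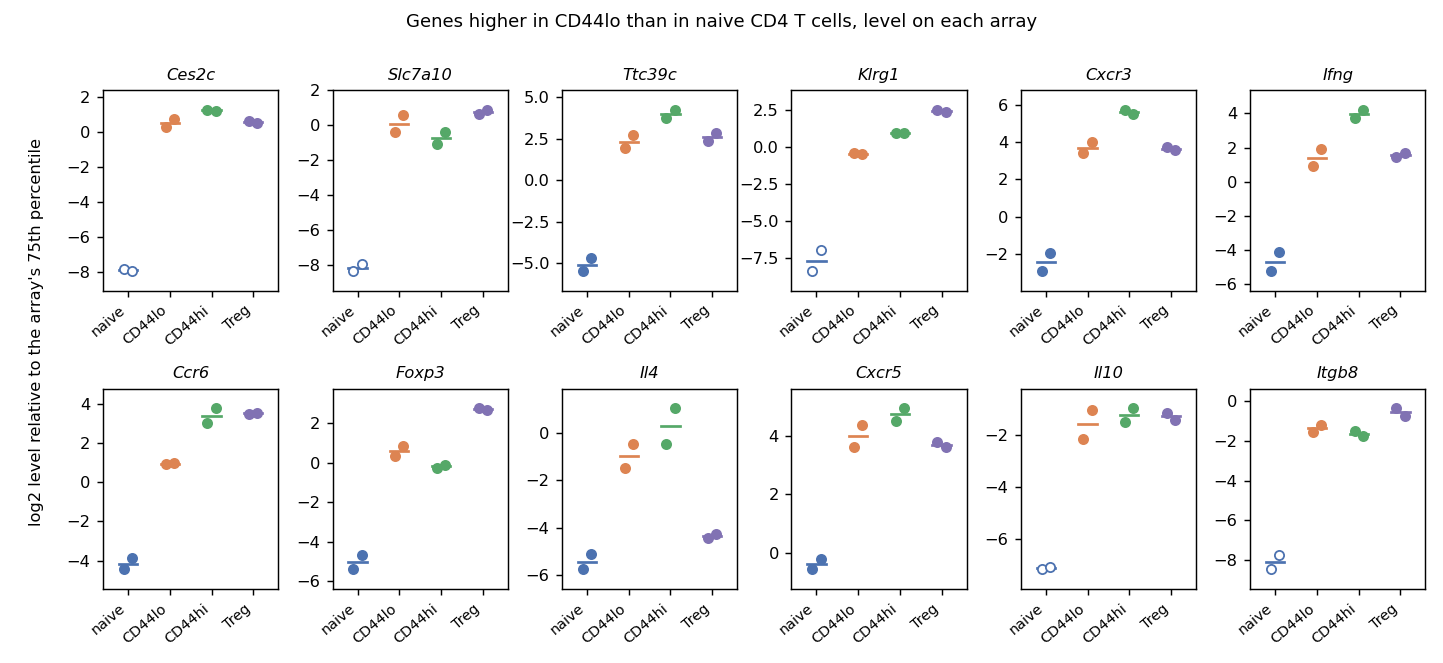
Levels (log2 relative to the 75th percentile of the array, y axis, with its own range in each panel) of 12 genes on every array of the 4 groups. Each point is 1 array, bars are group means, and open points mark groups in which the probe was not well above background on both arrays. In all 12 panels both CD44lo points lie above both naive points, as for 18.6% of all tested genes.

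The regulatory T cell programme was part of the CD44lo difference. Of 17 tested core regulatory genes 13 were higher and 0 lower (4.54% and 0.761% of all genes), with a median difference of 3.90 (3.75 on slide 1 and 4.06 on slide 2). Among genes well above background on all 4 arrays, 10 of 14 were higher (median 1.64), and after normexp 13 of 17 (median 2.37). Foxp3, the defining transcription factor (probe at chrX:6028182-6028241, mm7), had levels of -5.41 and -4.68 in naive and 0.35 and 0.84 in CD44lo, a 49.8-fold rise (difference 5.64 ± 0.28, adjusted p = 0.000169). In the CD44hi samples Foxp3 stood at -0.24 and -0.10, which did not differ from CD44lo by the test (adjusted p = 0.17), and in Treg at 2.77 and 2.68, above CD44lo by 2.13 ± 0.28 (adjusted p = 0.01). Il1r2, a decoy receptor for interleukin 1, rose at least 32.4-fold, from -8.43 and -8.02 in naive to -1.65 and -0.38 in CD44lo. Plagl1, a zinc finger factor, rose at least 25.7-fold, and Ikzf2 (Helios), an Ikaros-family factor of regulatory T cells, rose 43.2-fold (difference 5.43 ± 0.40, adjusted p = 0.00055). These 4 genes had both CD44lo arrays above both naive arrays, which 18.6% of all tested genes also had. Against Treg, 12 of the 17 genes were lower in CD44lo (background 3.69% of all genes lower) and 0 higher (1.87%); against CD44hi, 3 were higher in CD44lo (background 3.31%) and 1 lower (6.05%). In sorted bulk samples, a share of cells with a full programme and a lower level in every cell cannot be told apart, and this holds for each gene below.

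Some secreted and surface suppressive genes were higher in CD44lo, while the median of their list lay near 0. Of 16 genes of the suppressive cytokine and TGF-beta list 5 were higher and 0 lower (4.54% and 0.761% of all genes), with a median difference of 0.01. Of the 16, 8 lay above 0, and the differences ran from -0.715 to 6.74. Among genes well above background on all 4 arrays, 3 of 13 were higher (median -0.14), and after normexp 5 of 16 (median -0.12). Il10, an anti-inflammatory cytokine, had levels of -7.15 and -7.05 in naive and -2.16 and -1.06 in CD44lo, a rise of at least 21.4-fold (adjusted p = 0.000411). Itgb8, the integrin chain that releases active TGF-beta, rose at least 25.4-fold, from -8.47 and -7.74 to -1.52 and -1.21. Ebi3, a subunit of interleukin 35, rose 30.2-fold (difference 4.92 ± 0.43, adjusted p = 0.00111), and Fgl2, a secreted fibrinogen-like protein, rose 19.9-fold. Tgfb1 itself was not called, at 1.41 and 1.01 in naive and 1.21 and 1.28 in CD44lo. Among 11 ATP and adenosine genes, 3 rose and 0 fell: the ectoenzymes Entpd1 (CD39, at least 18-fold) and Nt5e (CD73, 4.1-fold), and the ATP-gated channel P2rx7 (6.22-fold).

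Some genes of each helper lineage were higher in CD44lo, beside 4.54% of all genes higher and 0.761% lower. Of 15 type 1 genes 7 were higher and 0 lower (median difference 0.75), of 12 type 2 genes 7 and 0 (median 1.75), and of 15 type 17 genes 8 and 0 (median 1.89). Of 16 follicular helper genes 8 were higher and 0 lower (median 1.52). With any 1 of the 4 arrays left out, these counts ran from 7 to 8, 6 to 7, 7 to 9 and 8 to 9. The lists share members, such as Il21, which is in the type 17 and the follicular list. Among genes well above background on all 4 arrays, 6 of 13, 4 of 9, 4 of 9 and 5 of 13 were higher, in the same order. Their medians were 0.75, 0.14, 0.65 and 0.81. After normexp 7, 5, 6 and 9 genes were higher and 1 type 1 gene was lower. The medians were then 0.64, 0.44, 0.66 and 1.415.

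In the type 1 list, Ifng, the cytokine that defines the lineage, had levels of -5.24 and -4.14 in naive and 0.89 and 1.92 in CD44lo (68.5-fold, difference 6.10 ± 0.46, adjusted p = 0.000605). Cxcr3, a chemokine receptor for inflamed tissue, stood at -2.92 and -1.92 in naive and at 3.40 and 3.98 in CD44lo (69.2-fold, adjusted p = 0.00027). Both genes were separated between the groups by over 5 on the log2 scale. Tbx21 (T-bet), the lineage factor, rose 18.1-fold (difference 4.17 ± 0.38, adjusted p = 0.00136), and Ccl5, a chemokine made by effector cells, rose 21-fold. In CD44hi cells these genes were higher still for Ifng, Cxcr3 and Tbx21 (CD44lo lower by 2.56 ± 0.46, 1.92 ± 0.35 and 2.51 ± 0.38, adjusted p = 0.02, 0.021 and 0.01). In Treg they were near the CD44lo level, with differences of -0.17, 0.04 and 0.35 that were not called.

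In the type 2 list, Il4, the lineage cytokine, had levels of -5.77 and -5.12 in naive and -1.48 and -0.48 in CD44lo, a 22.1-fold rise (difference 4.47 ± 0.55, adjusted p = 0.00492). Treg cells stood between naive and CD44lo for Il4, at -4.45 and -4.27, and CD44lo exceeded them by 3.38 ± 0.55 (adjusted p = 0.019). Il1rl1, the interleukin 33 receptor (17.9-fold), and Ccr4, a skin-homing chemokine receptor (at least 14.2-fold), also rose, although 1 of the other 2 probes of Il1rl1 went the other way, and with the mean of its probes Il1rl1 was not called (1.25, adjusted p = 0.0975). Gata3, the lineage factor, was not called, at 2.76 and 3.37 in naive and 3.20 and 3.21 in CD44lo (difference 0.14 ± 0.22).

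In the type 17 list, Il1r1, the signalling receptor for interleukin 1, rose at least 14.3-fold, from -8.46 and -8.08 in naive to -2.43 and -1.96 in CD44lo, and it was not called after normexp (1.91, adjusted p = 0.069). In the same list Ccr6, a mucosal homing receptor, rose 34.6-fold (difference 5.11 ± 0.30, adjusted p = 0.000284). Il21, a cytokine of follicular and type 17 helper cells, rose at least 29.7-fold, from -7.62 and -6.07 to -1.68 and -0.60. The groups did not overlap for these genes, as for 18.6% of all tested genes with CD44lo higher. Against CD44hi, 9 of the 15 type 17 genes and 7 of the 15 type 1 genes were lower in CD44lo, against 6.05% of all genes.

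In the follicular helper list, Cxcr5, the receptor that guides cells into B cell follicles, had levels of -0.58 and -0.22 in naive and 3.65 and 4.39 in CD44lo, a 21.4-fold rise (difference 4.42 ± 0.29, adjusted p = 0.000372). Sostdc1, a secreted antagonist of BMP and Wnt signalling, rose at least 53.3-fold, from -8.12 and -7.72 to -1.38 and 0.79. The CD44lo arrays differed from each other for Sostdc1 by more than for the other genes named here, yet both stayed far above naive. Angptl2, a secreted angiopoietin-like protein, rose at least 23.1-fold. Against CD44hi, 0 of the 16 follicular genes were called in either direction in limma. Cxcr5 stood there at 4.54 and 4.98, and its difference from CD44lo was -0.74 ± 0.29 (adjusted p = 0.19).

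Transcription factors of the effector state were mostly higher in CD44lo, with 13 of 19 higher and 0 lower (4.54% and 0.761% of all genes) and a median difference of 2.18. Zbtb32, a zinc finger repressor, rose at least 27.7-fold, from -6.86 and -5.77 in naive to -1.57 and -0.85 in CD44lo. Maf, which drives Il4, Il21 and Il10, rose 21.1-fold (difference 4.40 ± 0.26, adjusted p = 0.000284), from -0.68 and -0.01 to 3.86 and 4.25. Irf4, which scales with antigen receptor signal, rose 3.71-fold, and Prdm1 (Blimp1), a factor of effector and regulatory cells, rose 2.44-fold (difference 1.29 ± 0.15, adjusted p = 0.00425). Prdm1 was not called without CD44lo array 2 (difference 1.18, adjusted p = 0.0547). Of the 19 factors, 9 were lower in CD44lo than in CD44hi and 1 was higher, against 6.05% and 3.31% of all genes.

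Of 16 transcription factors of the naive state 0 were called in either direction by limma, against 5.3% of all genes, and their median difference was -0.33 (-0.61 on slide 1 and -0.18 on slide 2). Lef1, a Wnt-pathway factor of naive T cells, had levels of 6.23 and 6.95 in naive and 5.63 and 5.46 in CD44lo (difference -1.05 ± 0.26, adjusted p = 0.0778). Satb1, a chromatin organiser, stood at 5.73 and 5.95 against 5.19 and 4.87 (adjusted p = 0.0634), and Bach2, a repressor that restrains effector genes, at 4.25 and 4.47 against 3.73 and 3.53 (adjusted p = 0.101). These groups did not overlap, as was the case with CD44lo lower for 36% of all tested genes, and the differences did not pass the threshold. Tcf7 and Klf2, quiescence and memory factors, differed by -0.36 ± 0.15 and -0.62 ± 0.21 and were not called either. Without naive array 1, the count of lower factors was 8 of 16; with the array median as the scale it was 2.

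**Figure D3:**
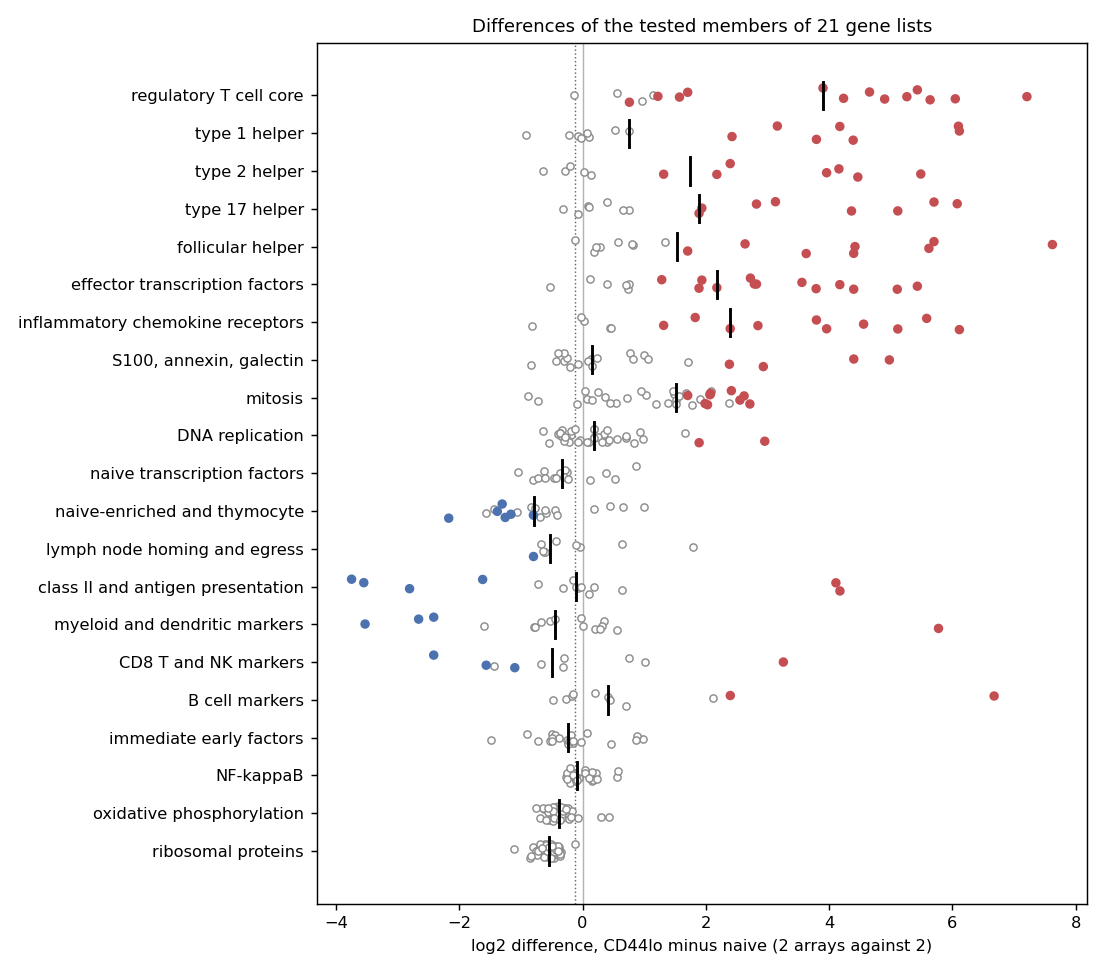
Difference between CD44lo and naive (log2, x axis) of every tested member of 21 gene lists (rows), with filled red points called higher, filled blue points called lower and open points not called. Black bars are list medians and the dotted line is the median of all genes at -0.13; the regulatory, helper and effector factor lists lie to the right of it and the naive-enriched list to the left.

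Genes enriched in naive T cells and late thymocytes fell in part. Of 20 tested, 6 were lower in CD44lo and 0 higher (0.761% and 4.54% of all genes), with a median difference of -0.79 (-0.97 on slide 1 and -0.66 on slide 2). Dntt, the terminal transferase that adds random bases at antigen receptor joins and marks cells recently out of the thymus (probe at chr19:40953285-40953344, mm7), had levels of 1.58 and 2.39 in naive and -0.10 and -0.27 in CD44lo. It fell 4.5-fold (difference -2.17 ± 0.26, adjusted p = 0.00471). Amigo2, an adhesion molecule, fell 2.47-fold, from 0.19 and 0.41 to -1 and -1.01. Cnn3, a calponin, stood at 2.33 and 2.79 in naive and 1.48 and 1.13 in CD44lo (difference -1.25 ± 0.22, adjusted p = 0.0213), and Dapl1, a quiescence-linked protein, at 4.74 and 5.35 against 3.77 and 3.56 (difference -1.38 ± 0.29, adjusted p = 0.0475). All CD44lo values were below all naive values for these 4 genes, as for 36% of all tested genes.

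The naive-enriched calls depended on which arrays were fitted. The count of 6 was 2 without CD44lo array 1, 1 without CD44lo array 2, 4 without naive array 2 and 12 without naive array 1. Dntt stayed called in each case; Amigo2 was lost without CD44lo array 2 (-1.30, adjusted p = 0.0533), and Cnn3 was lost without CD44lo array 1 (-1.43, adjusted p = 0.0514), CD44lo array 2 (-1.08, adjusted p = 0.176) or naive array 2 (-1.02, adjusted p = 0.0741). Dapl1 was lost without the same 3 arrays (-1.49, -1.28 and -1.08, adjusted p = 0.143, 0.285 and 0.179).

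Several of the naive-enriched genes were also higher in CD44lo than in CD44hi and Treg. Dntt stood at -2.39 and -2.48 in CD44hi and at -1.46 and -1.59 in Treg, below CD44lo by 2.25 ± 0.26 (adjusted p = 0.0046) and 1.34 ± 0.26 (adjusted p = 0.037). Amigo2 stood at -3.81 and -4.03 in CD44hi and at -2.46 and -2.34 in Treg, below CD44lo by 2.92 ± 0.16 (adjusted p = 0.00071) and 1.40 ± 0.16 (adjusted p = 0.0067). Igfbp4, a secreted growth factor binding protein of naive cells, did not pass the test between CD44lo and naive (1.82 and 1.94 against 2.51 and 2.64, adjusted p = 0.208), yet stood at -3.12 and -2.87 in CD44hi, which was below CD44lo by 4.88 ± 0.25 (adjusted p = 0.00067). Of the 20 genes, 10 were higher in CD44lo than in CD44hi and 9 higher than in Treg, with 1 lower in each comparison, against 3.31% and 1.87% of all genes higher and 6.05% and 3.69% lower. These comparisons use the same CD44lo arrays as the one with naive.

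**Figure D4:**
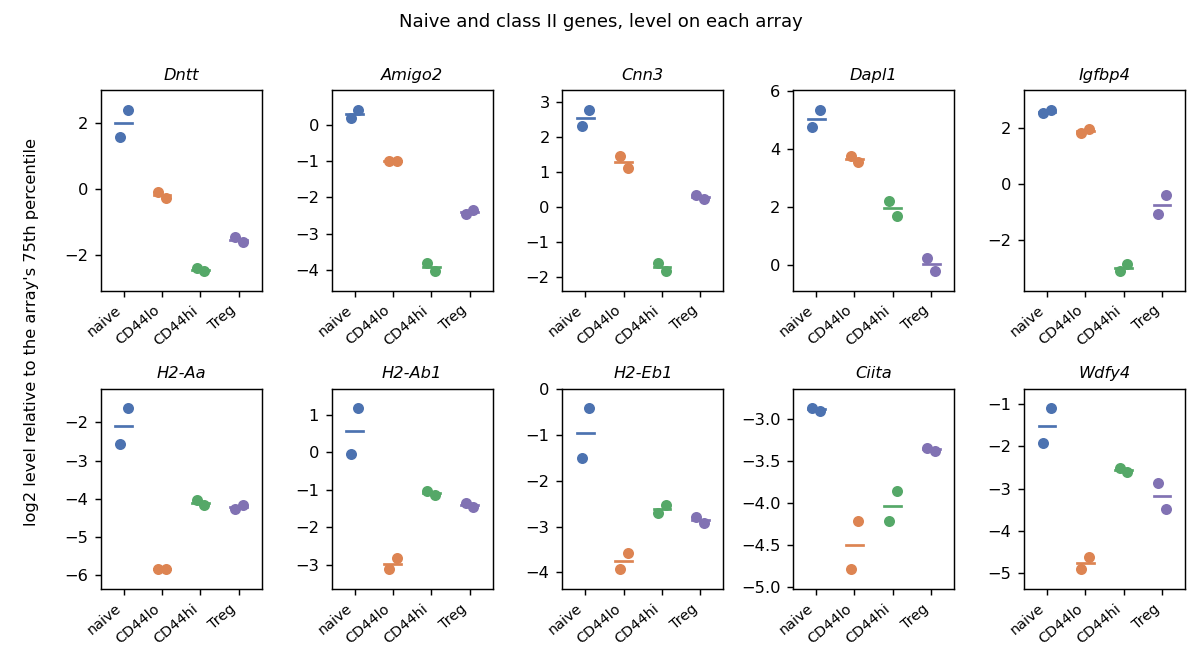
Levels (log2 relative to the 75th percentile of the array, y axis, with its own range in each panel) of 5 naive-enriched genes (upper row) and 5 class II or antigen presentation genes (lower row) on every array. Each point is 1 array and bars are group means. In the upper row CD44lo lies below naive and above CD44hi and Treg. In the lower row both CD44lo points lie below both points of naive in each panel, as for 36% of all tested genes.

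Chemokine receptors for inflamed tissue were mostly higher in CD44lo. Of 15 inflammatory and homing chemokine receptors 10 were higher and 0 lower (median difference 2.40), and with 1 array left out the count ran from 8 to 10. Ccr2, a receptor of inflammatory recruitment, had levels of -6.82 and -6.79 in naive and -2.34 and -2.15 in CD44lo, a rise of at least 13.8-fold (adjusted p = 6.58e-05). Gpr15, a gut homing receptor, rose at least 10.9-fold, from -8.37 and -7.98 to -2.39 and -2.79. Among receptors of the list well above background on all 4 arrays, 5 of 9 were higher (median 1.32), and after normexp 7 of 15 (median 0.66). Ccr7 and S1pr1, receptors of entry into and exit from lymph nodes, differed by -0.62 ± 0.21 and -0.44 ± 0.18 and were not called.

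Cd44 itself, the gene of the receptor in the group's name, had levels of 2.13 and 2.51 in naive and 2.82 and 3.06 in CD44lo, a difference of 0.62 ± 0.19 that was not called (adjusted p = 0.14). In CD44hi it stood at 4.5 and 4.39, above CD44lo by 1.5 ± 0.19 (adjusted p = 0.0054), so the order of the arrays followed the group names. Cd4 and Cd3e, which mark helper T cells, were measured in both groups and not called (differences 0.40 ± 0.50 and 0.05 ± 0.16), and Cd5, which follows antigen receptor strength, differed by 0.04 ± 0.17. Of 15 surface markers 1 was higher and 1 lower, against 4.54% and 0.761% of all genes. The higher was Cd38, an ectoenzyme of activated and regulatory cells, which rose 11.5-fold from -5.13 and -5.18 to -2.00 and -1.27, and the lower was Cd8b1, described below.

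Some inhibitory receptors of T cells were higher in CD44lo. Of 17 CD28-family and related receptors 4 were higher and 0 lower, namely Ctla4 (25.2-fold), Lag3 (25.4-fold) and Pdcd1 (12.4-fold), which dampen T cell responses, and Cd200 (2.78-fold), a ligand of an inhibitory receptor. Ctla4 had levels of -3.60 and -4.22 in naive and 0.76 and 0.72 in CD44lo. Icos, a costimulator of follicular and regulatory cells, stood at 2.48 and 3.26 against 3.99 and 4.43 and missed the threshold (adjusted p = 0.0632). Tnfrsf4, the gene for Ox40 that the cre allele follows, had levels of 0.69 and 1.45 in naive and 2.73 and 3.31 in CD44lo, with no overlap, as for 18.6% of all tested genes. Tnfrsf4 rose 3.85-fold (difference 1.95 ± 0.30, adjusted p = 0.0138). Without CD44lo array 2 its difference was 1.66 (adjusted p = 0.0954). Of its list of 16 TNF-family genes 5 were higher and 0 lower, and without CD44lo array 2 this count was 2.

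Killer cell receptors and cytotoxic genes were mixed. Klrg1, an inhibitory receptor of effector cells, rose at least 48.4-fold, from -8.39 and -6.98 in naive to -0.40 and -0.47 in CD44lo, and 3 genes of the Klrb1 family rose with it (Klrb1a at least 4.33-fold, Klrb1c 9.57-fold and Klrb1f 8.85-fold). Klrb1a was not called after normexp (0.62, adjusted p = 0.178). These Klrb1 genes are close relatives whose probes may share signal. Klrd1 (CD94) fell instead, from 2.60 and 2.93 to 1.51 and 0.90 (difference -1.56 ± 0.30, adjusted p = 0.0311), and it was not called without CD44lo array 2 (-1.26, adjusted p = 0.201) or naive array 2 (-1.40, adjusted p = 0.161). Of 15 granzyme and cytotoxic genes 3 were higher and 0 lower (4.54% and 0.761% of all genes). The 3 were the granule proteases Gzmk (at least 20.9-fold) and Gzmb (at least 19.5-fold) and the granule membrane protein Nkg7 (13-fold). Among genes of this list well above background on all 4 arrays, 1 of 13 was higher (median 0.07). After normexp 4 of 15 were higher (median 0.21). Gzmk stood at -8.46 and -6.86 in naive, -1.81 and -1.47 in CD44lo and -5.56 and -5.05 in Treg, and CD44lo exceeded Treg by 3.66 ± 0.49 (adjusted p = 0.011).

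Memory genes of the S100, annexin and galectin families held 4 genes that rose over naive and others that were lower than in CD44hi. Of 21 tested, 4 were higher and 0 lower, against 4.54% and 0.761% of all genes. S100a4 and S100a6, calcium-binding proteins of effector and memory cells, rose 21.1-fold and 31.5-fold; S100a6 stood at -2.33 and -1.53 in naive and 2.73 and 3.37 in CD44lo (difference 4.98 ± 0.31, adjusted p = 0.000339). Anxa1, an annexin, was not called between CD44lo and naive (-4.61 and -4.28 against -5.58 and -5.31, adjusted p = 0.14) but stood at 1.02 and 1.45 in CD44hi, above CD44lo by 5.68 ± 0.30 (adjusted p = 0.00067). Lgals3, a galectin, likewise missed the threshold against naive (difference 1.07 ± 0.23, adjusted p = 0.0513) and was below CD44hi by 4.06 ± 0.23 (adjusted p = 0.00076). In the comparison with CD44hi, 9 of the 21 were lower in CD44lo and 0 higher, against 6.05% and 3.31% of all genes.

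Part of the mitosis genes were higher in CD44lo than in naive, and most were lower than in CD44hi and Treg. Of 35 mitosis genes 10 were higher in CD44lo than in naive and 0 lower (4.54% and 0.761% of all genes), with a median difference of 1.52. Against CD44hi 34 of the 35 were lower in CD44lo, and against Treg 27 (6.05% and 3.69% of all genes), with 0 higher in both. Mki67, a marker of cycling cells, had levels of -1.97 and -1.11 in naive, 0.44 and 1.31 in CD44lo, 4.17 and 4.51 in CD44hi and 2.98 and 3.61 in Treg. Its rise over naive was 5.33-fold (difference 2.41 ± 0.41, adjusted p = 0.0196), and it was not called without CD44lo array 2 (1.98, adjusted p = 0.116). Cdk1, the mitotic kinase, rose at least 5.13-fold, from -6.25 and -6.21 to -4.03 and -3.32, with its other probe going the other way, and it was not called without CD44lo array 2 (2.20, adjusted p = 0.0621) or naive array 2 (2.57, adjusted p = 0.0797). Cdk1 was also not called after normexp (0.64, adjusted p = 0.255), on the authors' deposited table (0.99, adjusted p = 0.104) or with the mean of its probes (0.84, adjusted p = 0.211). The count of 10 was 6 without CD44lo array 1, 0 without CD44lo array 2, 11 without naive array 1 and 2 without naive array 2, and it was 4 with the slide as a block, 1 after normexp, 1 on the authors' deposited table and 3 after quantile normalisation. Of 37 DNA replication genes 2 were called, both higher, against 4.54% of all genes higher, Tk1 (7.76-fold) and Chaf1a (3.71-fold), a salvage kinase and a chromatin assembly factor; Pcna and Mcm2 differed by -0.33 ± 0.22 and -0.04 ± 0.21. Chaf1a was not called after normexp (1.21, adjusted p = 0.0502), without CD44lo array 2 (1.54, adjusted p = 0.185) or naive array 2 (1.78, adjusted p = 0.162).

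Several lists of acute antigen receptor signalling and of basal metabolism held no call, against 5.3% of all genes called. Limma called 0 of 21 immediate early factors (median difference -0.24), 0 of 23 NF-kappaB subunits and inhibitors (-0.09), 0 of 36 oxidative phosphorylation genes (-0.38), 0 of 26 cholesterol and fatty acid genes (-0.24), 0 of 51 ribosomal protein genes (-0.55) and 0 of 36 proteasome genes (-0.35). Of 29 proximal T cell receptor signalling genes 2 were higher, the exchange factor Vav2 (2.21-fold) and the adaptor Sla (1.66-fold), and 2 lower, the kinases Txk and Tec (1.74-fold and 1.88-fold). Without CD44lo array 1 the counts were 1 and 0, and without CD44lo array 2 they were 0 and 0. Of 24 genes in the glycolysis and pentose phosphate list 0 were higher and 1 lower, Pdk1 (1.88-fold). Pdk1 is a kinase of pyruvate dehydrogenase and not itself an enzyme of these pathways. It was not called after quantile normalisation (-0.72, adjusted p = 0.0636), nor without either CD44lo array (-0.99 and -0.83) or without naive array 2 (-0.81). Nr4a1, an immediate early receptor of antigen stimulation, had levels of 4.62 and 5.34 in naive and 4.45 and 4.76 in CD44lo, and Cd69, an early activation marker, 3.12 and 3.22 against 2.90 and 2.09. Egr2, which follows sustained antigen receptor signal, stood at 1.51 and 1.75 against 2.35 and 2.86 and did not pass (adjusted p = 0.0716). Ribosomal protein genes had a median of -0.80 on slide 1 and -0.24 on slide 2, beside -0.24 and -0.03 for all genes, and -0.09 on the authors' deposited table. Without naive array 1, which leaves the dimmer naive array, 50 of 51 ribosomal, 29 of 36 oxidative phosphorylation and 27 of 36 proteasome genes were called lower. Among feedback regulators, 3 of 15 dual-specificity phosphatase and Sprouty genes rose, Dusp14 (at least 4.96-fold, but not called after normexp, at 0.82 with an adjusted p of 0.166), Dusp4 (9.9-fold) and Spry1 (4.49-fold), and of 11 regulators of G protein signalling 3 rose, led by Rgs16 (19.2-fold, from -3.77 and -3.08 to 0.17 and 1.51).

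Some genes of antigen-presenting cells were among the largest falls. H2-Aa, the class II alpha chain, had levels of -2.56 and -1.63 in naive and -5.84 and -5.84 in CD44lo, and fell 13.4-fold (difference -3.75 ± 0.29, adjusted p = 0.000687; -4.21 on slide 1 and -3.28 on slide 2). H2-Ab1, the beta chain, had levels of -0.03 and 1.18 against -3.13 and -2.82 and fell 11.7-fold (adjusted p = 0.00242). H2-Eb1, a second beta chain, stood at -1.5 and -0.41 against -3.94 and -3.58 (adjusted p = 0.00494). Both CD44lo arrays lay below both naive arrays for these 3 genes, as for 36% of all tested genes.

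Ciita, the coactivator that class II promoters need, fell 3.07-fold (-2.87 and -2.90 against -4.79 and -4.22, adjusted p = 0.0084), and was not called without naive array 2 (-1.64, adjusted p = 0.0582). Cd74, the invariant chain, was not called, at -0.12 and 0.71 against -0.76 and -0.11 (adjusted p = 0.271), with overlap between the groups. Of the 15 genes in the class II and antigen presentation list, 4 were lower and 2 higher, against 0.761% and 4.54% of all genes. The 2 higher were Cd83 (18.1-fold) and Cd80 (at least 3.79-fold), an activation marker and a ligand of Cd28 and Ctla4 that T cells can also make. Cd80 was not called after normexp (0.61, adjusted p = 0.226). The median difference of the list was -0.10, beside -0.13 for all genes. The summed level of the 15 genes, scaled as for the markers below, was 18.7 to 27 in naive and 22 to 27.2 in CD44lo. Their median level was -2.1 to -0.925 in naive and -2.49 to -2.15 in CD44lo.

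Other genes known from myeloid cells fell in the same comparison: Wdfy4, which dendritic cells need for cross-presentation (9.54-fold), Pirb, a paired inhibitory receptor (11.5-fold), and Plbd1, a phospholipase-like protein (at least 8.8-fold). Of 17 tested myeloid and dendritic markers 3 were lower and 1 higher (0.761% and 4.54% of all genes). The higher was Cybb, a subunit of the phagocyte oxidase, which rose at least 26-fold from -7.45 and -6.76 to -1.69 and -0.97. Lyz2, a lysozyme of macrophages, was not called (-3.72 and -2.73 against -2.70 and -2.63). The summed level of 20 myeloid markers, in multiples of the 75th percentile, was 1.65 to 2.34 on the naive arrays and 1.51 to 1.72 on the CD44lo arrays; of the defining markers, Fcgr1 and Clec9a were not well above background on either array of either group. Of 11 tested B cell markers 2 were higher and 0 lower, Cd22 and Cd79b, a chain of the B cell receptor (5.27-fold; without CD44lo array 2, 2.22 with an adjusted p of 0.0654). For 14 B cell markers the sum was 35.6 to 47.6 in naive and 58.4 to 79.8 in CD44lo, with Ebf1, Blk and Fcer2a not well above background in either group. Ms4a1, Cd22 and Pax5 were not well above background on either naive array, but were so on at least 1 CD44lo array. For 12 CD8 T cell and NK cell markers the sum was 18.3 to 23.4 in naive and 9.48 to 10.8 in CD44lo, with Ncr1, Klrk1 and Klre1 not well above background in either group and Cd8a in neither CD44lo array. A sum follows its brightest members. The median level of these 12 markers was -3.98 to -3.26 in naive and -3.67 to -3.43 in CD44lo. For the B cell markers it was -5.91 to -5.35 and -5.46 to -5.31, and for the myeloid markers -3.92 to -3.53 and -4.69 to -4.34. Cd8b1, a CD8 chain, fell 2.14-fold (3.12 and 3.74 against 2.36 and 2.3, adjusted p = 0.0361), and was not called without CD44lo array 1 (-1.13, adjusted p = 0.154) or array 2 (-1.07, adjusted p = 0.235). The part of other cells in the falls of class II, myeloid and CD8 genes, and in the rises of Cd22 and Cd79b, was not tested.

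Few genes set CD44lo apart from all of the other groups. Only 6 genes (0.0333% of those tested) were lower in CD44lo than in each of naive, CD44hi and Treg, among them H2-Aa, Plbd1, Rnd3, Trpm2 and Wdfy4, and 1 (0.00556%) was higher, the transcript AK033297. H2-Aa stood at -4.04 and -4.16 in CD44hi and at -4.27 and -4.15 in Treg, above CD44lo by 1.74 ± 0.29 (adjusted p = 0.015) and 1.63 ± 0.29 (adjusted p = 0.026). Wdfy4 was likewise above CD44lo by 2.20 ± 0.32 in CD44hi and 1.58 ± 0.32 in Treg. Rnd3, an atypical small GTPase, and Trpm2, a calcium channel, had no CD44lo array well above background. Trpm2, with 1 of 2 naive arrays well above background, was not called against naive after normexp (-0.66, adjusted p = 0.0702), on the authors' deposited table (-0.46, adjusted p = 0.155) or after quantile normalisation (-2.19, adjusted p = 0.0507), nor Rnd3 with the mean of its probes (-1.91, adjusted p = 0.218). AK033297 was near background, at -7.63 and -8.11 in naive and -5.64 and -5.13 in CD44lo (at least 1.56-fold, adjusted p = 0.00772), and it was not called without CD44lo array 2 (2.23, adjusted p = 0.059) or naive array 2 (2.25, adjusted p = 0.0724). It was also not called after normexp (0.09, adjusted p = 0.767) or on the authors' deposited table (0.45, adjusted p = 0.113). All 3 comparisons use the same CD44lo arrays.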

How the data were processed

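Each of 8 samples was read on 1 array by the authors, whose deposited files hold intensity values from Agilent's Feature Extraction software (release 9.5.1.1 in the file headers). The processed signal used here is already background-subtracted, and not scaled between arrays, per the file headers. The deposited quality flags of each spot (unit other) were used as the file headers define them. The authors' deposited value table was on a log2 scale by its values, with column medians of 6.86 to 6.88; limma is named in the submitters' processing notes, and the table's background handling, centring and normalization are not given in the sources used here. Probe coordinates are those of the files (mm7).

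Control spots (1639 of 45018) were left out, as were outlier spots unless all spots of a probe were outliers, and log2 signals were taken minus each array's 75th percentile. Of 41174 probes, 23082 were named through an accession, 6582 by symbol, 3073 by an older symbol, and 8437 kept the file's name. Each of 27666 names was represented by its brightest probe. Of these, 17995 were tested, namely those with a probe well above background on the 2 arrays of any group. Limma 3.58.1 in R 4.3.3 was fitted to all 8 arrays without a block (4 residual and 2.62 prior degrees of freedom), and the script was tested on simulated data. Alternatives changed the background correction (normexp, offset 50), scaling, filter, probe summary, arrays fitted, slide or replicate block and prior, or left out 1 array.

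The comparison, the gene lists and the tests were chosen with earlier results of these data known. The rule for named genes took anchors of each list, up to 4 called members of a list by size, the 15 largest rises and falls, genes called against every other group and genes whose probes disagreed; a selection of these is printed, and results of some genes are not reported here. Promoter windows and gene order are from RefSeq (GRCm38.p6), a different build from the probes.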

Additional observations from a re-analysis of the deposited data

How the results depend on the processing

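Against 954 genes called (817 higher, 137 lower), the count was 606 without a filter on dim probes (39 lower) and 595 with a filter on all 4 arrays (477 higher). Normexp gave 487 higher, and the lower count was 308 on the authors' deposited table, 281 after median scaling, 225 with an intensity trend, 63 when only the 4 arrays were fitted and 87 with the slide as a block. With 1 array left out the counts ran from 506 to 7187 called, 476 to 2391 higher and 30 to 4796 lower; against CD44hi (1683) they were 511 and 862 without CD44lo arrays 1 and 2, and against Treg (1000) they were 187 and 456. With the replicate number as a block 1197 genes were called, 1023 higher and 174 lower, among them 924 of the 954; the replicate differences of naive and CD44lo correlated at 0.26 across genes, but 2 numbers of unstated meaning do not establish a pairing. Of the called genes that the text names, 1 changed sign under an alternative, Naip6 (-0.18 after normexp). Another 8 genes, none of them called, did so. After median scaling Cd3e was -0.15, Cd5 -0.16, Gata3 -0.0637 and Tgfb1 -0.17. On the authors' deposited table Mcm2 was 0.0787, Pcna 0.0488 and Tcf7 0.0238, and Mcm2 was 0.0134 after normexp and 0.0730 after quantile normalisation. With 1 array left out, Cd3e ran from -0.0496 to 0.16, Cd4 from -0.38 to 1.19, Cd5 from -0.11 to 0.20, Gata3 from -0.17 to 0.44, Mcm2 from -0.13 to 0.0497 and Tgfb1 from -0.17 to 0.23. The cause was not tested. For genes not well above background in naive cells, the "at least" folds hold for the processed signal only. After normexp the fold was below the bound for 30 of 30 such named genes that rose.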

Other observations

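Naip5, a sensor of bacterial proteins, had levels of -5.16 and -4.92 in naive and -0.97 and -0.29 in CD44lo, a 21.3-fold rise (difference 4.41 ± 0.25, limma adjusted p = 0.000254). Its relative Naip2 rose 3.1-fold, from -1.88 and -1.76 to -0.33 and -0.05. Casp1, the protease that inflammasomes activate, rose 6.42-fold, from -0.56 and 0.09 to 2.29 and 2.61 (limma adjusted p = 0.00136). Both CD44lo arrays were above both naive arrays for these 3 genes, as for 18.6% of all tested genes. Naip6 was near background in naive cells and was called higher (difference 0.91), but it stood at -0.18 after normexp, was not called on the authors' deposited table (0.17, limma adjusted p = 0.402) and was not called without CD44lo array 1 (0.90, limma adjusted p = 0.136) or array 2 (0.92, limma adjusted p = 0.164). These Naip genes are close relatives whose probes may share signal, and the genes named in this section were chosen after their values were seen.

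Some called genes were neighbours in the gene order of RefSeq. Of 841 called genes with a place among 13901 tested genes in that order, 159 lay in 74 runs of neighbours called the same way, 68 runs higher and 6 lower; whether this is more than the order of genes would give was not tested. One run on chromosome 12 held Serpina9, Serpina3f and Serpina3g, of which Serpina9 and Serpina3f, protease inhibitors, rose by factors of at least 36.4 and 30.9. Probes of such related genes may share signal. On chromosome X, Flicr, a long non-coding RNA beside Foxp3, stood at -5.39 and -4.81 in naive and -3.08 and -3.22 in CD44lo (difference 1.95 ± 0.23, limma adjusted p = 0.00444), and was not called after normexp (0.71, limma adjusted p = 0.144). A run on chromosome 9 held the chemokine receptors Ccr3 and Ccr2. Ccr3 stood at -5.55 and -5.34 against -4.07 and -4.19, and was not called after normexp (0.21, limma adjusted p = 0.459), without CD44lo array 1 (1.25, limma adjusted p = 0.0708) or array 2 (1.38, limma adjusted p = 0.0645). Among the lower runs, Txk and Tec, related kinases of antigen receptor signalling on chromosome 5, fell by 0.80 and 0.91 on the log2 scale. Without CD44lo array 1 neither was called (Txk -0.83, limma adjusted p = 0.169, and Tec -0.92, limma adjusted p = 0.109), nor without array 2 (Txk -0.77, limma adjusted p = 0.267, and Tec -0.89, limma adjusted p = 0.156).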
